A study of Mus musculus with 2 samples.

Results

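Malt1, Bcl10, Card9 and Card10 encode the protease, the adaptor and a pair of scaffold proteins of the CBM complex, named after CARD scaffolds, Bcl10 and Malt1. The genes were taken by their symbols, which 4 of the 55536 annotated genes in the tables carry. The group was chosen by the TPM of Malt1, which is among the most abundant nucleoplasmic mRNAs of these same libraries, so the level and rank of Malt1 are given as a description. The series holds a single group of 2 libraries, labelled as biological replicates 1 and 2, from macrophages grown out of mouse bone marrow of strain C57BL/6J. The cells had been treated for 90 min with lipid A at 100 ng/ml. Lipid A, the membrane anchor of lipopolysaccharide, is a ligand of the bacterial sensor TLR4. Total RNA of the nucleoplasmic fraction was sequenced after removal of ribosomal RNA. The source name calls the fraction nuclear. The labels give 1000 ng of starting RNA for replicate 1 and 500 ng for replicate 2, tie both to the same donor entry, and state that age and sex were not collected. Biological and technical parts of the spread between the libraries therefore cannot be told apart. With no untreated and no cytoplasmic library analysed here, no value below measures a response to lipid A or an export from the nucleus, and no p-value is given.

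In the CBM complex, a scaffold protein with a caspase recruitment domain (CARD) opens on receptor signalling and seeds filaments of the adaptor Bcl10, which carry Malt1 along their side. Malt1, a paracaspase, then recruits the ubiquitin ligase Traf6, which leads to IkB kinase and NF-kB, and cleaves a set of proteins that restrain the response or degrade mRNA. The scaffold differs by cell type: Card9 serves myeloid cells below the C-type lectin receptors that sense fungi, and Card10 serves mainly non-haematopoietic cells below G protein-coupled receptors. TLR4 itself reaches NF-kB mainly through the adaptors Myd88 and Ticam1.

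The libraries held 22412217 (replicate 1) and 14893750 (replicate 2) estimated counts on annotated genes. Levels are given as TPM, a relative abundance that corrects for transcript length. Features with an effective length under 200 bases took 73.9% of all TPM in replicate 1 and 57.0% in replicate 2, which lowers the TPM of longer genes unequally. Expressed protein-coding genes had a median log2 TPM ratio of 0.38 (replicate 2 over replicate 1), and a TPM difference between the libraries has to be read against this shift. Mitochondrial genes took 4.98% of counts in replicate 1 and 12.2% in replicate 2; the part of this difference in the results below was not tested. Of 8 macrophage markers, 8 stood at 10 TPM or more in both libraries, with a median of 198 TPM. No lymphocyte marker of 8 reached 1 TPM in both libraries; the highest was Lck, with 2.17 TPM in replicate 1 and 0.68 TPM in replicate 2, and Cd3e, Cd3g and Ncr1 were listed at 0. Their sum was 2.58 TPM in replicate 1 and 1.09 TPM in replicate 2. Quantified from reads, Lck did reach 1 TPM in both libraries, with 3.70 and 1.14 TPM. Among 8 neutrophil and mast cell markers only S100a9 reached 1 TPM in both libraries, with 1.59 and 1.54 TPM; Elane, Camp and Mcpt4 were listed at 0, and the list summed to 2.89 and 3.53 TPM. Among 10 epithelial, stromal and endothelial markers only Kdr did, with 3.03 and 3.47 TPM; Epcam, Krt8 and Krt18 were listed at 0, and the list summed to 3.49 and 4.44 TPM. From reads, however, the endothelial marker Pecam1 had 3.53 and 13.4 TPM, against 0.21 and 0.60 TPM in the first quantification. The part of these cell types in the results was not tested. In bulk RNA, fewer cells of a type and less RNA per cell cannot be told apart.

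In the first of the deposited quantifications, the levels of the 4 genes fell in the order Malt1, Bcl10, Card9 and Card10 in both libraries. Malt1 had 661 TPM in replicate 1 and 1119 TPM in replicate 2 (890 ± 323, SD, n = 2). Bcl10 had 19.8 and 22.5 TPM (21.2 ± 1.92, SD, n = 2). Card9 had 10.2 and 7.13 TPM (8.65 ± 2.14, SD, n = 2). Malt1 stands first by the level for which it was chosen, and Bcl10 lay above Card9 in both libraries. Card10 was close to the limit of detection, with 1 estimated count in each library. The span of the 4 levels, more than 4 orders of magnitude here, rests on that count. It was smaller from reads, where Card10 had 0.315 TPM in replicate 1 and 0.694 TPM in replicate 2. Of these 4 genes, 3 reached 1 TPM in both libraries, as did 38.9% of all 22015 nuclear-encoded protein-coding genes, and 2 reached 10 TPM, as did 14.6%. Over the 8559 protein-coding genes expressed at 1 TPM or above in each library, the median level was 6.62 TPM in replicate 1 and 8.67 TPM in replicate 2. Malt1 stood 99.9-fold and 129-fold above that median and Bcl10 2.99-fold and 2.60-fold above it, while Card9 stood at 1.53 and 0.822 times the median.

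**Figure D1:**
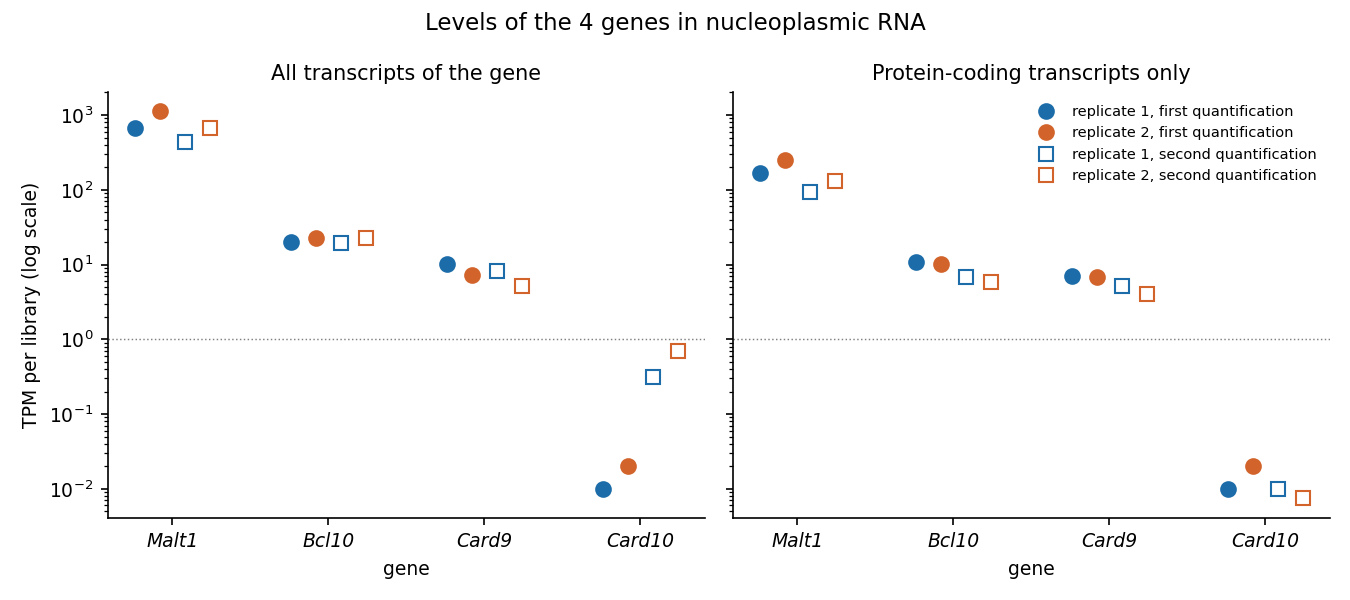
TPM of Malt1, Bcl10, Card9 and Card10 in each library on a log axis, for all transcripts of a gene (left) and for its protein-coding transcripts alone (right); filled circles are the first and open squares the second of the deposited quantifications, and the dotted line marks 1 TPM. Malt1 lies between 436 and 1119 TPM on the left and between 92.1 and 249 TPM on the right, and the order Malt1, Bcl10, Card9 and Card10 holds in every library and panel.

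Malt1 (ENSMUSG00000032688.9) lies on the plus strand of chromosome 18, at chr18:65430938-65479067 (mm10), and spans 48130 bases. It took 66741 counts in replicate 1 and 54126 in replicate 2, or 0.298% and 0.363% of all counts on annotated genes. By mean TPM it ranked 10 among the expressed protein-coding genes, with rank 14 in replicate 1 and rank 9 in replicate 2. The deposited interval bounds of its TPM, 630 to 652 in replicate 1 and 1028 to 1068 in replicate 2, lie below the TPM values themselves. A separate quantification, made directly from reads, gave 436 and 673 TPM (555 ± 168, SD, n = 2), which put Malt1 at rank 16 by mean TPM, with rank 27 in replicate 1 and rank 10 in replicate 2. All these ranks are among protein-coding genes only. They restate the level by which Malt1 was chosen, in 2 quantifications of the same libraries.

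The genes beside Malt1 in rank included lysosomal and antigen presentation genes. Above it stood H2-K1, a class I antigen-presenting gene (1073 ± 176 TPM), Ctsd, a lysosomal protease gene (1049 ± 252 TPM), and Lyz2, the lysozyme gene (1010 ± 133 TPM). Below it stood Tnip3, whose product binds the NF-kB inhibitor A20 (857 ± 116 TPM), H2-D1, another class I gene (776 ± 35.3 TPM), and Zeb2, a transcription factor gene (740 ± 201 TPM; SD, n = 2 for each). In the first quantification, H2-K1 and Ctsd lay above Malt1 and Zeb2 below it in both libraries. The order of Malt1 with Lyz2, Tnip3 and H2-D1 changed between the libraries. From reads, Zeb2 lay above Malt1 in both libraries (529 and 759 TPM), so the order within this stretch depends on library and method. The neighbours differed in make-up: transcripts annotated as retained intron took 93.1% and 91.8% of Tnip3 TPM in replicates 1 and 2 and 58.1% and 68.9% of H2-K1, but 0.41% and 0.29% of Ctsd and none of Lyz2.

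**Figure D2:**
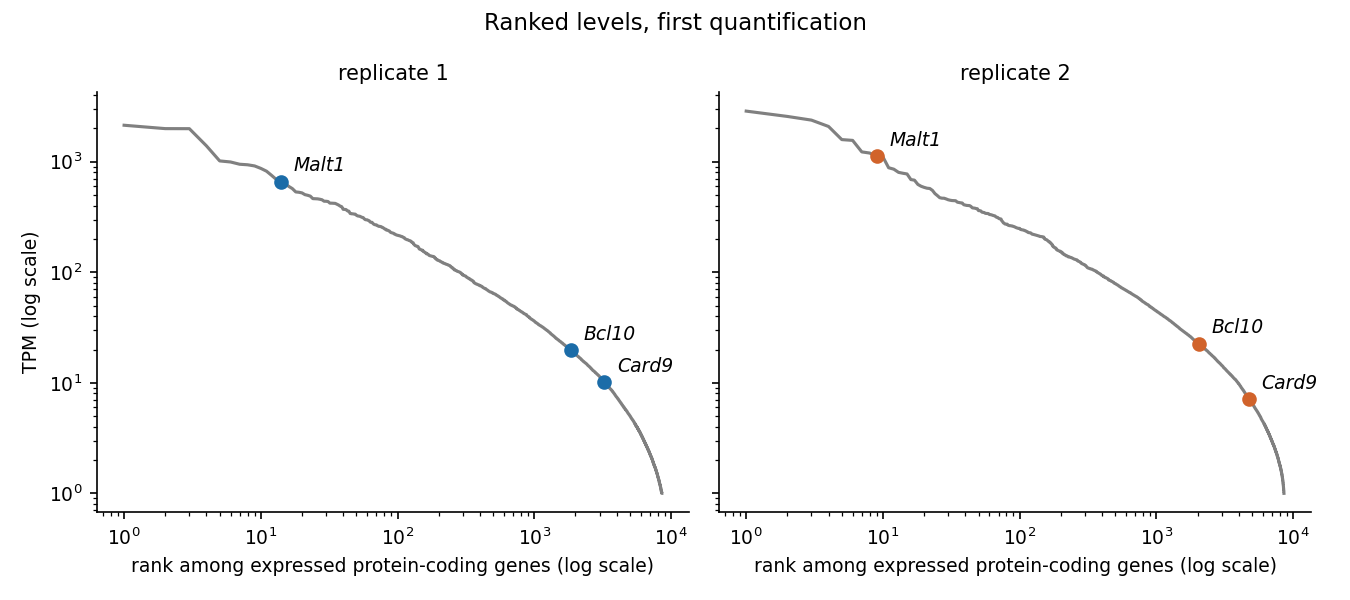
TPM of each expressed protein-coding gene against its rank in replicate 1 (left) and replicate 2 (right), on log axes, with Malt1, Bcl10 and Card9 marked. Malt1 sits at rank 14 and rank 9. Counted over all nuclear-encoded protein-coding genes, Bcl10 had rank 1841 and rank 2042 and Card9 rank 3255 and rank 4756. The plotted positions, over expressed genes only, can differ slightly from these.

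Most Malt1 TPM fell on transcripts that are not annotated as protein-coding. Of 13 annotated Malt1 transcripts, 7 are retained-intron, 3 nonsense-mediated-decay, 2 protein-coding and 1 processed transcripts. The retained-intron transcripts had 424 TPM in replicate 1 and 768 TPM in replicate 2, which is 64.0% and 68.7% of the gene (66.4 ± 3.27%, SD, n = 2). The protein-coding transcripts had 170 and 249 TPM, which is 25.7% and 22.3%. The share of the nonsense-mediated-decay transcripts was 9.90% and 8.83%. In estimated counts, which favour long transcripts, the retained-intron share was 51.9% and 57.1%, and the protein-coding share was 45.3% and 40.5%. The quantification from reads gave retained-intron shares of 62.6% and 69.0% of TPM. A retained-intron assignment does not separate a stably kept intron from RNA that was not yet spliced.

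Counted over protein-coding transcripts alone, Malt1 had 210 ± 55.9 TPM (SD, n = 2) and ranked 57 among protein-coding genes, and the quantification from reads gave 112 TPM and rank 98. Retained-intron shares were common in this fraction. Among 5581 expressed protein-coding genes with at least 1 retained-intron and 1 protein-coding transcript, 21.5% had a share of 50% or more in both libraries, as Malt1 did, and 31% of 6182 genes did in the quantification from reads. The median share was 35.2% in replicate 1 and 34.3% in replicate 2. By the share, Malt1 ranked 648 and 513 among the 5581 genes, but by the TPM of its retained-intron transcripts it ranked 6 and 4. Only 5.0% of these genes have as many annotated retained-intron transcripts as Malt1, and the median gene has 2. Among the 279 genes that have 7 or more, the median share was 60.4% and 60.5%, and Malt1 ranked 115 and 92. Its share thus lay above the median of genes annotated alike in both libraries. From reads, the median of these genes was 65.2% and 65.9%, which the share of Malt1 passed in replicate 2 only. The TPM of its retained-intron transcripts is part of the TPM by which Malt1 was chosen, so its rank by them is a description.

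The intron sequence of these transcripts lies in introns 2 and 4 to 9, apart from a few bases of intron 12. The protein-coding Malt1-201 has 16 exons and 15 introns with 42788 intron bases in all. The retained-intron transcripts cover 12612 of those bases, or 29.5%, and touch 8 introns. Introns 4 to 7 are covered whole, intron 2 over 55.5% of its length, intron 8 over 35.5%, intron 9 over 35.3% and intron 12 over 0.559%. Introns 1, 3, 10, 11, 13, 14 and 15 are covered by no retained-intron transcript. Of the 7 transcripts, 6 consist of 72.8% to 100% intron sequence, and these 6 held 59.8% of Malt1 TPM in replicate 1 and 61.7% in replicate 2. The other, Malt1-208, has 31 intronic bases (3.84%), so reads on it are nearly all exonic.

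The most abundant Malt1 transcripts kept similar shares of the gene in both libraries, and some of the lesser ones did not. Malt1-201, the main protein-coding transcript with 5331 bases, had 168 TPM in replicate 1 and 245 TPM in replicate 2, or 25.4% and 21.9% of the gene. Malt1-206, a transcript of 556 bases that starts at the end of intron 6, has intron 7 spliced out and runs on into intron 8, had 142 and 230 TPM, or 21.4% and 20.6%. Malt1-213, which reads from the second exon into intron 2, had 110 and 208 TPM, or 16.6% and 18.6%. These 3 transcripts carried most of the gene. Malt1-203, a single exon of 6404 bases over introns 6 and 7 and into intron 8, had 67.3 and 114 TPM, or 10.2% in each library. Malt1-209, which lies wholly inside intron 9, had 39.2 and 84.3 TPM. Malt1-207 had 37.1 and 51.6 TPM, and Malt1-208 had 27.9 and 77.7 TPM. The share of Malt1-208 was 4.22% in replicate 1 and 6.94% in replicate 2, and that of Malt1-212 was 1.84% and 1.08%. The nonsense-mediated-decay transcripts were less stable between methods: Malt1-211 had 49.2 and 85.6 TPM and Malt1-212 had 12.15 and 12.03 TPM, whereas the quantification from reads gave 9.30 and 6.79 TPM to Malt1-211 and 46.8 and 64.9 TPM to Malt1-212. The remaining transcripts, Malt1-202, Malt1-204, Malt1-205 and Malt1-210, each held under 1% in both libraries in the first quantification. From reads, Malt1-202 held 1.64% and 2.50%, and Malt1-204 held 3.02% and 0.54%.

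**Figure D3:**
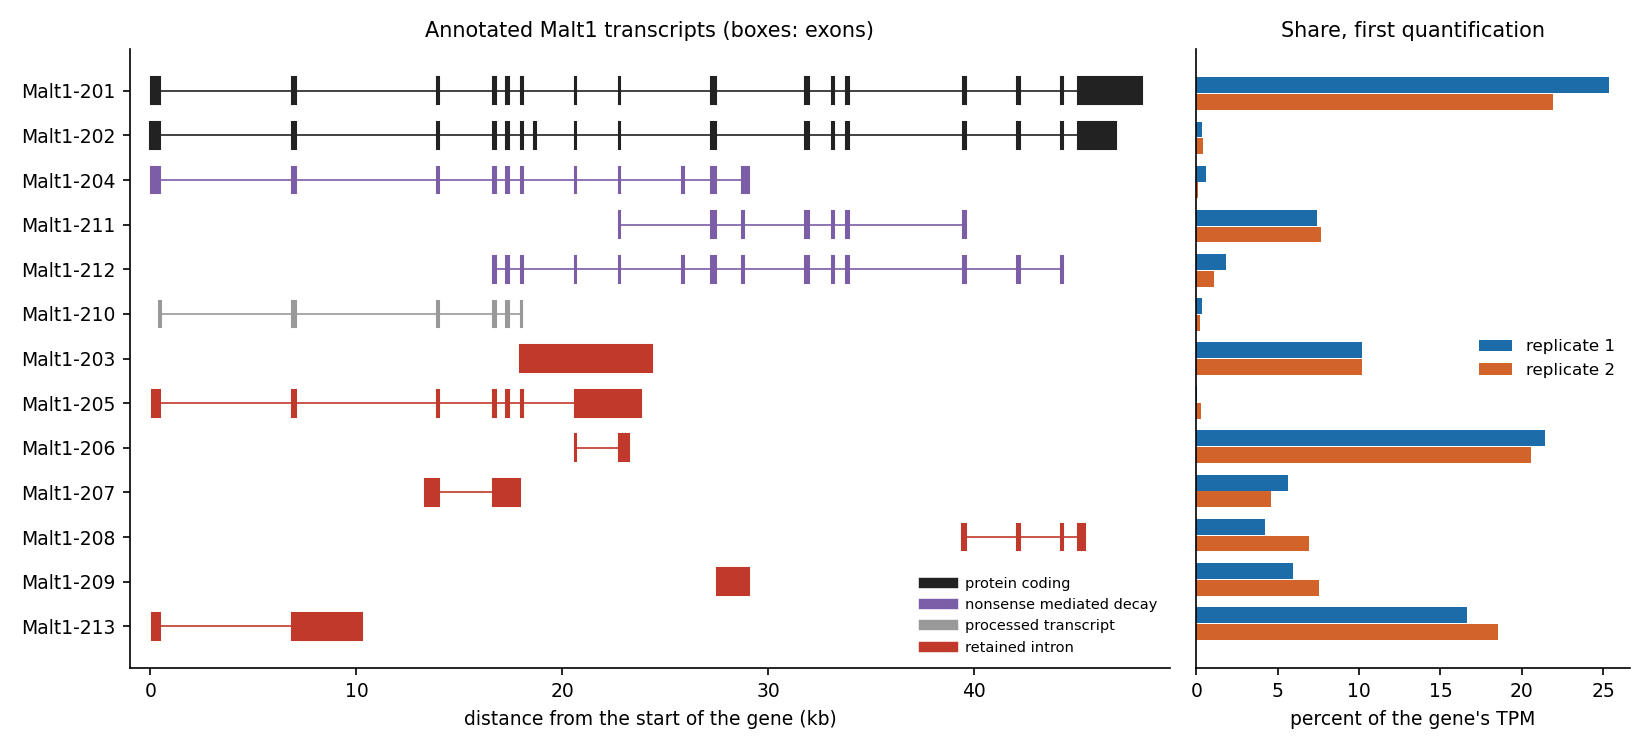
Exon maps of the 13 annotated Malt1 transcripts by distance from the start of the gene (left; boxes are exons, lines introns, colours the annotated type) and the percent of Malt1 TPM on each in replicates 1 and 2 (right; bars start at 0). Malt1-201 (25.4% and 21.9%), Malt1-206 (21.4% and 20.6%) and Malt1-213 (16.6% and 18.6%) have the longest bars in both libraries.

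The protein-coding pair of Malt1 differs by an alternative exon. In T cells, the alternatively spliced exon 7 of Malt1 adds a short stretch with a binding site for Traf6, and the forms with and without it are known as Malt1A and Malt1B. In the annotation, Malt1-202 has a 33-base exon of 11 codons at chr18:65449575-65449607, inside intron 6 of Malt1-201, as its exon 7. Malt1-202 had 2.30 TPM in replicate 1 and 4.26 TPM in replicate 2, which is 1.35% and 1.71% of the sum of Malt1-201 and Malt1-202. From reads, it was given 7.78% and 12.7%. The retained-intron transcript Malt1-203 also spans this exon, unspliced. Malt1-201, which lacks the exon, held the larger part in every value, but the share of the exon-containing form cannot be given closer than this range.

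Bcl10 (ENSMUSG00000028191.11) encodes the adaptor that forms the filament core of the complex. It lies on the plus strand at chr3:145922804-145934356 and has 3 annotated transcripts, of which 1 is protein-coding, 1 a retained-intron and 1 a processed transcript. It took 942 counts in replicate 1 and 478 in replicate 2 and ranked 1962 among the expressed protein-coding genes by mean TPM. The deposited bounds, 17.8 to 20.8 TPM in replicate 1 and 18.9 to 23.6 TPM in replicate 2, overlap between the libraries. In the quantification from reads Bcl10 had 19.5 and 22.6 TPM, so the total level of Bcl10 hardly depended on the method.

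The 3 Bcl10 transcripts share an exon end and part after it, and the sequences below are shown because reads over this point decide which of them a read belongs to. They come from the GENCODE M21 transcripts (mm10). The lower-case letters are the last 30 shared bases, chr3:145924486-145924515, and the capitals are the 30 bases that follow in each transcript. In Bcl10-201 (protein-coding) these lie at chr3:145930406-145930435, in Bcl10-203 (processed transcript) at chr3:145927431-145927460, and in Bcl10-202 (retained intron) at chr3:145924516-145924545, directly after the exon.
Bcl10-201: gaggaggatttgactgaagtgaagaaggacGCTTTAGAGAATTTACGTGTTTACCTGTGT
Bcl10-203: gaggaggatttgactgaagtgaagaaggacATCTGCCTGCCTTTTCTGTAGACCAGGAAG
Bcl10-202: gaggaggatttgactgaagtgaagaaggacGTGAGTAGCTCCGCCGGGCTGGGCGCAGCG

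The protein-coding Bcl10-201 had 11.0 TPM in replicate 1 and 10.3 TPM in replicate 2 (10.6 ± 0.509, SD, n = 2), or 55.4% and 45.5% of the gene. Bcl10-203, whose last exon lies inside the intron after the shared exon, had 6.37 and 9.70 TPM, or 32.2% and 43.1%. Bcl10-202, a single exon of 2368 bases, starts 1458 bases before Bcl10-201 and runs on into the same intron. Much of its length thus lies before the protein-coding transcript and not in an intron. Bcl10-202 had 2.46 and 2.57 TPM, or 12.4% and 11.4%. The order of these transcripts depended on the method: the quantification from reads gave Bcl10-203 55.2% and 66.6% and Bcl10-201 34.8% and 25.7%. The retained-intron share of Bcl10 was below the median share of 35.2% and 34.3% in both libraries, unlike that of Malt1, though Bcl10 has 1 such transcript in the annotation and Malt1 has 7.

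Card9 (ENSMUSG00000026928.14), the myeloid scaffold, lies on the minus strand at chr2:26352176-26360918 and took 445 counts in replicate 1 and 198 in replicate 2. By mean TPM it ranked 3995 among the expressed protein-coding genes. The deposited bounds of 8.75 to 11.3 TPM in replicate 1 and 5.85 to 8.05 TPM in replicate 2 do not overlap. Quantified from reads, Card9 had 8.29 and 5.20 TPM. The gene has no retained-intron transcript in the annotation, and most of the gene was on its protein-coding transcripts Card9-201 and Card9-202, which start at different first exons. Card9-201 had 4.14 and 4.70 TPM, and Card9-202 had 2.88 and 2.01 TPM. Together the protein-coding transcripts had 7.02 and 6.71 TPM (6.87 ± 0.219, SD, n = 2), or 69.2% and 94.1% of the gene.

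The deposited TPM of Card9 differed most in Card9-203, a processed transcript of 516 bases from the 3' end of the gene. Relative to the median gene, the protein-coding TPM of Card9 was also lower in replicate 2 (log2 ratio -0.44), and in counts the protein-coding transcripts took 413 of the 445 in replicate 1 and 196 of the 198 in replicate 2. Card9-203 had 3.13 TPM (32.02 counts) in replicate 1 and 0.42 TPM (2.18 counts) in replicate 2. Its first exon begins with intron sequence of the protein-coding form, which the letters below show. The lower-case letters are 30 shared bases at chr2:26352532-26352561, and the capitals are the 30 bases before them on the minus strand, at chr2:26352941-26352970 in Card9-201 and at chr2:26352562-26352591 in Card9-203.
Card9-201: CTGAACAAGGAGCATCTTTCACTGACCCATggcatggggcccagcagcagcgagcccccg
Card9-203: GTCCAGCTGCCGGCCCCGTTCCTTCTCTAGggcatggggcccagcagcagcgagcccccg

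A gene on the opposite strand, Gm13562, overlaps Card9. It had 0.55 TPM (11 counts) in replicate 1 and 1.51 TPM (15 counts) in replicate 2. Whether the counting used strand is not given in the sources used here, so reads of the overlap may have been given to either gene. No other annotated gene overlaps Malt1, Bcl10 or Card10.

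Card10 (ENSMUSG00000033170.14), the scaffold of non-haematopoietic cells, lies on the minus strand at chr15:78775138-78803042. It had 1 estimated count in each library, with an exact Poisson 95% interval of 0.0253 to 5.57 counts that covers counting error only. This corresponds to 0.01 TPM in replicate 1 and 0.02 TPM in replicate 2, and the deposited upper bounds were 0.299 and 0.566 TPM. Quantified from reads, Card10 had 0.315 and 0.694 TPM, from 8.92 and 10.6 counts, of which 5.92 and 9.64 fell on Card10-201, a processed transcript of 529 bases. The protein-coding Card10-202, with 4726 bases, had 3 counts in replicate 1 and none in replicate 2 there. Both methods leave Card10 under 1 TPM in both libraries. The sequences show where these transcripts part: the lower-case letters are 30 shared bases at chr15:78789827-78789856, and the capitals are the 30 bases before them on the minus strand, at chr15:78791041-78791070 in Card10-202 and at chr15:78790327-78790356 in Card10-201.
Card10-202: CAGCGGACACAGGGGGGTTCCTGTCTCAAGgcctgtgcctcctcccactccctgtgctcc
Card10-201: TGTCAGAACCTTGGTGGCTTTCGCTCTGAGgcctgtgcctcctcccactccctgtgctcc

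Malt1 stood well apart from its partners, while Bcl10 and Card9 were close to each other. Malt1 was 33.4 times Bcl10 in replicate 1 and 49.7 times in replicate 2, by TPM of all transcripts. Over protein-coding transcripts alone, Malt1 was 15.5 and 24.3 times Bcl10 and 24.2 and 37.1 times Card9. Bcl10 was 1.95 and 3.16 times Card9 over all transcripts and 1.56 and 1.53 times over protein-coding transcripts. From reads, the ratio over protein-coding transcripts was 1.33 and 1.44. Leaving out retained-intron transcripts alone gave 13.7 and 17.6 times for Malt1 over Bcl10. These ratios describe values by which Malt1 was chosen and were not tested.

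Between the libraries, the genes were compared by TMM-scaled counts, which adjust for library size and make-up, with 1.5-fold as the limit of size. Malt1 was 1.21-fold higher in replicate 2 than in replicate 1 (log2 ratio 0.27, 95% counting interval 0.25 to 0.29). Bcl10 was 1.32-fold lower in replicate 2 (log2 ratio -0.40, -0.56 to -0.25). Card9 was 1.51-fold lower in replicate 2 (log2 ratio -0.59, -0.83 to -0.35), just past the limit, while Bcl10 lies inside it. Card9 was the only one of the 3 genes past 1.5-fold, in a comparison where 12.9% of 14278 genes were past 1.5-fold lower and 9.84% past 1.5-fold higher. Of all those genes, 74.7% had a lower ratio than Malt1, 20.0% a lower ratio than Bcl10 and 12.7% a lower ratio than Card9. The intervals of Bcl10 and Card9 overlap each other and not that of Malt1. With 2 libraries of 1 group, these are differences between libraries and not between conditions.

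**Figure D4:**
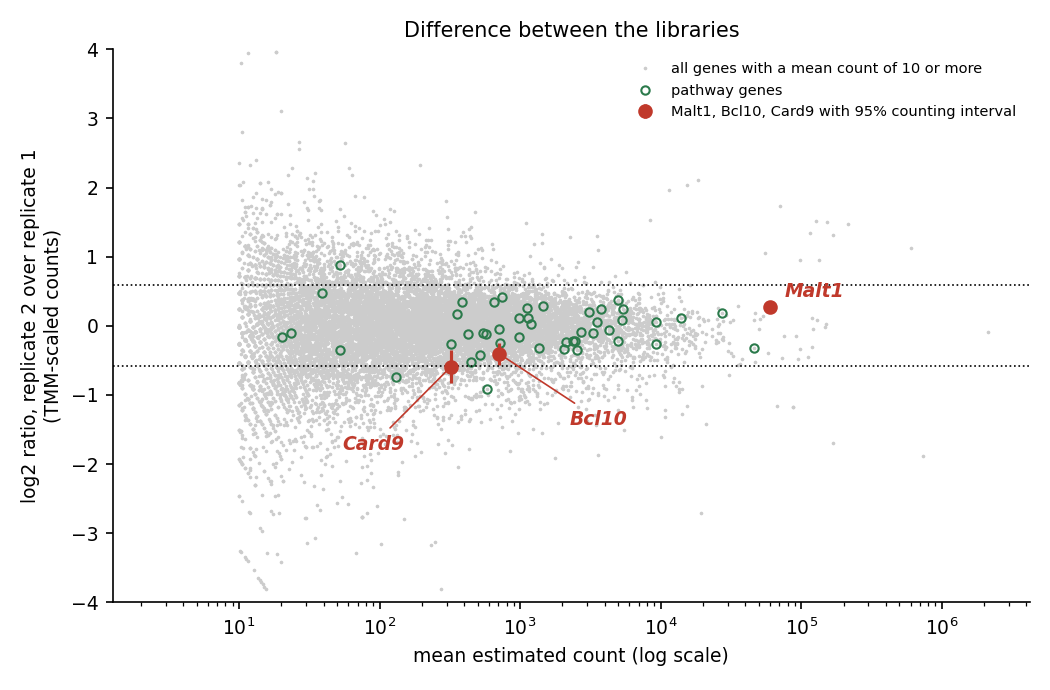
Log2 ratio of TMM-scaled counts, replicate 2 over replicate 1, against the mean estimated count (log axis) for 14278 genes (grey; a few beyond the axis are not drawn), the genes of the pathway lists (green rings), and Malt1, Bcl10 and Card9 (red, with 95% counting intervals); dotted lines mark 1.5-fold. Malt1 lies at 0.27, Bcl10 at -0.40 and Card9 at -0.59, on the lower line.

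Of the 3 CARD relatives on the list, 1 reached 10 TPM in both libraries. Card14, the scaffold of keratinocytes, had 0.01 TPM in replicate 1 and 0.04 TPM in replicate 2. Card6 had 0.13 and 0.35 TPM. Card19, a small CARD protein of mitochondria, had 51.5 and 34.8 TPM, which is 1.88-fold lower in replicate 2 after TMM scaling of its counts. Among the scaffold genes Card9, Card10 and Card14, Card9 alone reached 1 TPM in both libraries.

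The receptors and kinases above Card9 were mostly abundant. Of 16 genes of the C-type lectin and ITAM input, 13 reached 1 TPM and 12 reached 10 TPM in both libraries, with a median of 46.4 TPM, against shares of 38.9% and 14.6% and a median of 0.245 TPM over all protein-coding genes. The 3 highest were Syk, the kinase that binds phosphorylated ITAMs (303 ± 81.9 TPM), Prkcd, the kinase that phosphorylates Card9 (233 ± 36.3 TPM), and Fcer1g, an ITAM adaptor gene (211 ± 12.3 TPM; SD, n = 2 for each). The lectin receptor genes Clec4e (Mincle), Clec4d, Clec4n (Dectin-2) and Clec7a (Dectin-1) had means of 181, 123, 23.6 and 17.8 TPM. The lowest was Prkcq, the kinase of T cells, with 0.05 and 0.10 TPM. Card9 itself, at 8.65 TPM, lay below each of these named genes except Prkcq.

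Among the genes of the input to Card10, the receptor genes were lower than the shared signalling genes. Of 8 genes of the G protein-coupled and growth factor input, 4 reached 1 TPM and 3 reached 10 TPM in both libraries, with a median of 1.04 TPM, beside the 38.9% and 14.6% of all protein-coding genes that did. The 3 were the G protein genes Gna13 (69.4 ± 4.05 TPM) and Gnaq (50.6 ± 9.71 TPM) and the arrestin gene Arrb2 (47.7 ± 5.92 TPM; SD, n = 2 for each). The receptor gene Agtr1a was listed at 0 in both libraries, but had 0.495 and 2.05 TPM in the quantification from reads. The lysophosphatidic acid receptor gene Lpar1 had 2.07 TPM in replicate 1 and 1.34 TPM in replicate 2, and 4.82 and 3.86 TPM from reads.

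Downstream of Malt1, most ubiquitin ligase and kinase genes were detected. Of 16 genes, 15 reached 1 TPM and 12 reached 10 TPM in both libraries, against 38.9% and 14.6% of all protein-coding genes, with a median of 15.9 TPM. The highest were Csnk1a1, a casein kinase that joins the complex (77.7 ± 26.7 TPM), Tab2, an adaptor of the kinase Tak1 (76.3 ± 17.9 TPM), and Ikbkb, an IkB kinase gene (73.3 ± 25.6 TPM; SD, n = 2 for each). Traf6, the ligase that Malt1 recruits, had 11.1 TPM in replicate 1 and 13.9 TPM in replicate 2. The lowest was Tab1, with 0.70 and 1.51 TPM. By TMM-scaled counts, none of the 16 genes was past 1.5-fold between the libraries, where 22.8% of all 14278 genes, coding or not, were. Those 14278 genes include all with a mean count of 10 or more. Of 11070 protein-coding genes with such a ratio, 600 were past 1.5-fold higher and 1250 past 1.5-fold lower in replicate 2. By TPM relative to the median gene, Rnf31 (log2 ratio -0.72) and Tab1 (log2 ratio 0.63) were past 1.5-fold.

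The genes listed here as Malt1 protease substrates were all detected. Of 10, 10 reached 1 TPM and 7 reached 10 TPM in both libraries, where 38.9% and 14.6% of all protein-coding genes did, with a median of 24.2 TPM; Rbck1 and Tab3 are on this list and on the one before. Tnfaip3, which encodes A20, a deubiquitinase that restrains NF-kB, stood highest at 605 ± 107 TPM. Relb, an NF-kB subunit gene, had 43.2 ± 3.32 TPM, and N4bp1, which encodes a ribonuclease, had 38.6 ± 4.71 TPM (SD, n = 2 for each). Zc3h12a, which encodes the RNase Regnase-1, had 34.7 TPM in replicate 1 and 36.6 TPM in replicate 2. The lowest was Tab3, an adaptor of Tak1, with 4.53 and 4.06 TPM. In the first quantification Malt1, which was chosen by its level, lay above every one of these substrate genes in both libraries. Tnfaip3 was nearest to it, with 529 TPM in replicate 1 and 681 TPM in replicate 2. From reads, Tnfaip3 had 533 and 575 TPM against 436 and 673 TPM of Malt1. The order of that pair thus depends on library and method.

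Retained-intron shares of the pathway genes can be set beside that of Malt1. Of 29 pathway genes that had such a transcript and a protein-coding one, 9 had a share of 50% or more in both libraries, which is 31.0%, against 21.5% of the 5581 genes. They were the input genes Clec4e and Prkcd, the IkB kinase genes Ikbkb and Chuk, the 3 genes of the linear ubiquitin ligase, Rnf31, Rbck1 and Sharpin, and the substrate genes Tnfaip3 and Rc3h2. Tnfaip3 had 51.5% in replicate 1 and 56.7% in replicate 2, and Clec4e had 67.5% and 61.9%. Sharpin, with 68.7% and 71.3%, was the only one of the 9 above the 64.0% and 68.7% of Malt1 in both libraries. These shares are from the first quantification. From reads, 31% of 6182 genes had a share of 50% or more in both libraries. The pathway genes were not matched by their number of annotated retained-intron transcripts. Whether the 31.0% differs from the 21.5% was not tested.

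**Figure D5:**
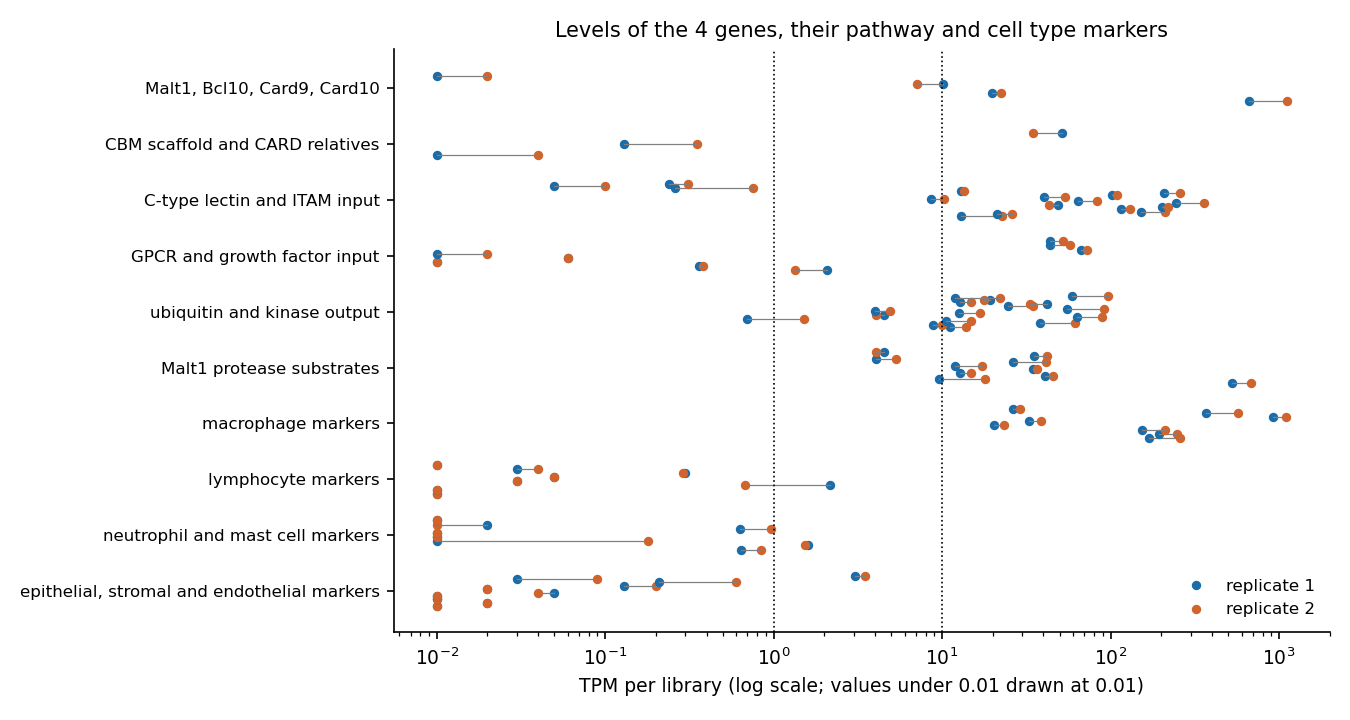
TPM of each gene in replicate 1 (blue) and replicate 2 (orange) on a log axis, by list, with a grey line joining the libraries; dotted lines mark 1 and 10 TPM, and values under 0.01 are drawn at 0.01. Malt1 is the rightmost pair of the top row at 661 and 1119 TPM, the macrophage markers all lie right of 10 TPM, and no lymphocyte, neutrophil, mast cell, epithelial, stromal or endothelial marker does in this first quantification.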

How the data were processed

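Nucleoplasmic RNA of 2 libraries was measured. Per the file headers and accompanying notes, the deposited gene and transcript tables of the first quantification came from a transcriptome alignment (mm10, GENCODE M21), and the other transcript table came straight from each library's 10 read files. The names of aligner, quantifiers and strand settings were not given in the sources used here. Estimated counts, deposited without normalization, can be fractional. TPM, as deposited, sum to the same total over all features of either library, and the deposited FPKM values served as an alternative. The deposited bounds of TPM (unit signal) are the quantifier's own, and the level they cover is not stated. The deposited percent of each isoform was not used; shares were recomputed from TPM.

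Types, exons and coordinates are those of GENCODE M21 on mm10. Rows that name no annotated gene held 1.14% (replicate 1) and 0.304% (replicate 2) of counts and stayed out. A count of 0 allows up to 3 counts, a CPM of 0.134 and 0.201; such floors and intervals cover counting error only. Ranks are among protein-coding genes outside the mitochondrial genome, per library over all of them and by mean TPM over those at 1 TPM or more in both libraries. Ratios used TMM (edgeR 4.0.16, R 4.3.3) over genes whose counts averaged at least 10, with a prior count of 2, on counts as deposited. DESeq2 1.42.0 size factors, other pseudocounts and the other quantification were alternatives. Tested on simulated data for this comparison (14278 genes, 200 changed), folds of 0.5 and 2 came back as median log2 ratios of -0.95 and 0.97. Python 3.11.15 with pandas 2.3.3 made the tables.

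Lists held 87 entries. The members, the lists and the naming rule were chosen with earlier results of these data known. The rule names the 4 genes, their transcripts at 1% or more, the 3 highest and the lowest gene of each pathway list, the 3 genes above and below Malt1 in rank, and the neighbouring genes. Card6, Card14, Clec4e, Clec4d, Clec4n, Clec7a, Lpar1, Traf6, Zc3h12a, Lck, Pecam1 and the pathway genes with high retained-intron shares are named outside it, chosen after their values were seen.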

Additional observations from a re-analysis of the deposited data

How the results depend on the processing

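Of 114 recomputed values, 80 stayed within the spread of the main value and 34 moved, and none reversed. Of the 80, 20 came from leaving out replicate 1 and 20 from leaving out replicate 2. For levels and shares that outcome was fixed, since with 2 libraries each lies within the SD of their mean. FPKM and TPM rescaled to protein-coding genes are other scales, so their levels cannot be compared directly with the main TPM. The quantification from reads gave a mean of 555 TPM and rank 16 for Malt1 (main 890 TPM and rank 10) and 0.504 TPM and rank 12194 for Card10 (main 0.015 TPM and rank 13478, over all protein-coding genes). It gave a share of 10.3% for Malt1-202 (main 1.53%) and 30.3% for protein-coding Bcl10 (main 50.5%). Its log2 ratios, replicate 2 over replicate 1, were 0.29 for Malt1, -0.13 for Bcl10 and -1.0 for Card9. On log2(TPM + 0.1) the ratios were 0.38, -0.19 and -0.88, and on log2(TPM + 1) they were 0.44 for Malt1 and -0.14 for Bcl10. Protein-coding transcripts alone, chosen after seeing the data, gave 210 TPM and rank 57 for Malt1, 10.6 TPM and rank 2289 for Bcl10, and rank 12961 for Card10. With the quantification from reads as well, they gave 112 TPM and rank 98 for Malt1, 6.30 TPM and rank 3007 for Bcl10, 4.58 TPM for Card9, and rank 15909 for Card10. FPKM gave 28.3 for Bcl10 and 11.9 for Card9. TPM rescaled to protein-coding genes gave 4420 for Malt1, 107 for Bcl10, 44.9 for Card9 and 0.0739 for Card10, and put 1 epithelial, stromal or endothelial marker at 10 or more (main 0). Each library alone put Malt1 at rank 9 to 14, Bcl10 at 1841 to 2042, Card9 at 3255 to 4756 and Card10 at 12962 to 13430. No paired analysis was possible because the 2 libraries form 1 group. Depth limits Card10, with 1 count per library, and Card9-203, with 2.18 counts in replicate 2. The cause of these differences was not tested.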

Other observations

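The protein-coding neighbours of Malt1 on chromosome 18 were low in the first quantification. Alpk2, 36872 bases before it, had 0.28 TPM in replicate 1 and 0.31 TPM in replicate 2, and Zfp532, 100845 bases after it, had 0.31 and 0.28 TPM. The quantification from reads gave Alpk2 5.66 and 9.71 TPM. Beside Card10, Mfng, 1663 bases away, had 0.09 and 0.12 TPM, and the quantification from reads gave it 4.27 and 7.93 TPM. Cdc42ep1, on the other side of Card10, had 0.05 and 0.35 TPM. Beside Bcl10, Ddah1 had 0.01 TPM in replicate 1 and was listed at 0 in replicate 2, and 2410004B18Rik, 3658 bases away, had 8.02 and 9.57 TPM. Beside Card9, Dnlz, 66 bases away, had 1.00 and 1.54 TPM, and Snapc4, 1847 bases away, had 5.30 and 8.31 TPM.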
